A study of Mus musculus with 8 samples.

Results

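The genes described here are Csprs and members of the Sp100 gene cluster of mouse chromosome 1: Csprs, C130026I21Rik, Sp100 and Sp110, 4 of the 16593 genes that had a probe on the arrays. Each was read by 1 probe, found by its symbol in the platform's probe-to-gene table, so no second probe was there to check it. Csprs and C130026I21Rik were picked because they were higher at day 456 than at day 90 in all 4 matched pairs of arrays. Their age values are therefore a description and carry no test. Sp100 and Sp110 were added as relatives, to ask whether they followed.

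The samples were liver total RNA of mice labelled female C57/BL6, taken after a fast of 6 h and measured on 8 bead arrays. The groups were F1 5% D90, F3 5% D90, F1 5% D456, F3 5% D456, F1 21% D90, F3 21% D90, F1 21% D456 and F3 21% D456, named by generation, dietary corn oil (5% or 21% w/w) and age (day 90 or day 456). With 1 array per group, a level of age, diet or generation was measured on 4 arrays and the groups themselves were not replicated. Whether RNA of 1 mouse or of several was hybridised is not stated in the labels, so p-values describe the spread among these 8 arrays and no more. A matched pair for age is the day 456 and the day 90 array of the same diet and generation.

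Sp100 is a protein of PML nuclear bodies, small nuclear structures built on the PML protein and on SUMO, a protein tag that holds their parts together. Genes of this family are known to be induced by interferons, and several of their proteins bind chromatin or DNA. Sp110 is known in mice as Ipr1, a gene of resistance to bacteria that live inside macrophages. Sp140 is a relative best known from immune cells. Csprs takes its name from Sp100-rs, a fusion of a copy of Sp100 with Csprs that is repeated many times on chromosome 1 of some house mice. In liver, immune cells such as Kupffer cells, the resident macrophages, lie among the hepatocytes.

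In the reference gene table of assembly GRCm38.p6, used for names and order, C130026I21Rik, Sp110 and Sp100 lie on chromosome 1 in that order, within a stretch of 14 entries that starts at A530032D15Rik and also holds Gm7609 and Sp140. Csprs is listed for chromosome 1 on a sequence of its own. RefSeq promoter windows, 250 bases before to 50 bases after an annotated start, were found for 3 of the 4 members, Csprs not among them. They are shown first because copies in this cluster begin with nearly the same sequence. The windows of C130026I21Rik (GRCm38.p6, chr1:85270517-85270816, minus strand), Sp140 (chr1:85600453-85600752, plus strand) and A530032D15Rik (chr1:85109804-85110103, minus strand) share an unbroken run of 146 bases, in capitals:
C130026I21Rik: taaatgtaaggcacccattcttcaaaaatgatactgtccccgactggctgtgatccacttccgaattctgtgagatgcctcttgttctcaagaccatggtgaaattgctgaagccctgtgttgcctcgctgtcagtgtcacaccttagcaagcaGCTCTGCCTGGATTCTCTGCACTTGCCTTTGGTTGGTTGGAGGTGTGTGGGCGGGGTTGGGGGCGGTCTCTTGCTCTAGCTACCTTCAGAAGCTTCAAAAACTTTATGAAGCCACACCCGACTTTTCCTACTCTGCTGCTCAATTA
Sp140: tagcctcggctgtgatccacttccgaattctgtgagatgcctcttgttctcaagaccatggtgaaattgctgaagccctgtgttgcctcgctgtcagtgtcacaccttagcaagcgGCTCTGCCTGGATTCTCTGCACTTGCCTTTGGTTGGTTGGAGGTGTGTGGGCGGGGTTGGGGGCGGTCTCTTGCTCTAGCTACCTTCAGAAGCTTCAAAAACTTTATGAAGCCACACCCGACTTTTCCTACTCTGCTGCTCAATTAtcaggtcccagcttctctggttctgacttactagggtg
A530032D15Rik: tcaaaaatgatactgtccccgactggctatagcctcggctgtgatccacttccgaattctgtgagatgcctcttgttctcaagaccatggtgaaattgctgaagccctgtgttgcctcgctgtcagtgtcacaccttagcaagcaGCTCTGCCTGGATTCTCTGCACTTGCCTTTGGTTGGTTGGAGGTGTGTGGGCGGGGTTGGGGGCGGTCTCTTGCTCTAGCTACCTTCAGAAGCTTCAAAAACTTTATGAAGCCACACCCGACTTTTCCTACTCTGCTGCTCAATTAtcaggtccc

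The C130026I21Rik and Sp140 windows were identical at 254 of 255 aligned positions (99.6%), and those of Sp140 and A530032D15Rik at 270 of 271 (99.6%). C130026I21Rik and A530032D15Rik matched at 279 of 291 aligned positions (95.9%), the other 12 being gaps. Among 32851 windows of 27025 genes the run of 146 bases occurred in 3 windows, those of these 3 genes. The Sp100 window resembled a different relative: it matched the window of Gm7609 at 293 of 298 positions (98.3%). Probe sequences were not used here, so how far a probe for one copy also reads another was not tested.

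A GAAA followed after 3 bases of any kind by another GAAA was searched for on either strand. This stretch stood in the windows of the first listed start of Sp100 (chr1:85649738-85650037, plus strand) and of the second listed start of Sp110 (chr1:85598761-85599060, minus strand). It is in capitals below, read as its reverse complement:
Sp100: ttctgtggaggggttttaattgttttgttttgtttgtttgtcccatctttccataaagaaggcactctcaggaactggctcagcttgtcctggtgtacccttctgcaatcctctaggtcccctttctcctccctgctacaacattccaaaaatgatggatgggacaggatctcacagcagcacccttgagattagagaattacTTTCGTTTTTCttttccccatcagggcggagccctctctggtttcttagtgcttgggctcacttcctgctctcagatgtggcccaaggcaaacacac
Sp110: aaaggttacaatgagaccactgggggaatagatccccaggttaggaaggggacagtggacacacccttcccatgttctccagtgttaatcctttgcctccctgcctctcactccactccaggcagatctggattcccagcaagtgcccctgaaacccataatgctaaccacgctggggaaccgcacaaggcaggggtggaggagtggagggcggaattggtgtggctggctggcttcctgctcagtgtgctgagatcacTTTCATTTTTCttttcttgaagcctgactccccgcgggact

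This stretch was held by 2.75% of all windows (903 of 32851). Of the cluster genes with a window it was found for Sp100, Sp110 and Gm7609. The form spaced as in the interferon response element has 2 bases between the GAAA blocks (3.44% of all windows, either strand). It matched no window of C130026I21Rik, Sp140, A530032D15Rik, Gm7609, Sp100 or Sp110. Nor did the STAT-like string TTCNNNGAA (8.30% of all windows). A match of letters is a description and not a bound site.

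The arrays themselves were close in scale, with median intensities of 123.2 to 123.5. Markers of other tissues read high in some of them. The summed intensity of 20 pancreatic acinar markers was 10394, 18059 and 27983 in the F3 5% D90, F1 5% D456 and F3 5% D456 arrays. It was 2880 to 3555 in the other 5. The summed intensity of 12 skeletal muscle markers was 4408 in F1 5% D90 and 3311 in F3 5% D456, against 1467 to 1710 elsewhere. The source of these marker signals was not tested. The Y-linked gene Eif2s3y read 109.2 to 113.1 except in F1 21% D90, where it read 165.7. That array is labelled female like the others, and the source of its Eif2s3y signal was not tested. The liver label held by its markers, with the transport protein genes Apoa1 at 24387 or more and Ttr at 23694 or more in all 8 arrays. Whether background had been subtracted from the values is not stated. A scale for dim probes was taken from 1143 probes of olfactory receptor genes, which encode odour receptors of the nose. Their median was 113.7 to 114.3 in every array and their 95th percentile 120.8 to 121.8. This scale was chosen after the values had been seen.

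Csprs was read clearly, above the 99th percentile of the olfactory receptor probes in 8 of 8 arrays. Its intensity at day 90 was 223.1 in F1 5%, 181.4 in F3 5%, 201.4 in F1 21% and 192.6 in F3 21%. At day 456 it was 377.7 in F1 5%, 359.3 in F3 5%, 418.6 in F1 21% and 412.5 in F3 21%. The lowest array of day 456 stood well above the highest of day 90, and the groups did not overlap. The mean log2 intensity was 7.64 ± 0.13 at day 90 and 8.61 ± 0.10 at day 456 (SD, n = 4 each), a difference of 0.97 on the log2 scale. Pair by pair the ratio of day 456 to day 90 was 1.69 in F1 5%, 1.98 in F3 5%, 2.08 in F1 21% and 2.14 in F3 21%. The smallest ratio belonged to the pair whose day 90 array, F1 5% D90, read the highest of that age. That array also had the lowest mean correlation with the other arrays (0.982 against 0.989 to 0.993).

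C130026I21Rik, a dim probe, was higher in the same arrays. Its intensity at day 90 was 127.3 in F1 5%, 124.4 in F3 5%, 125.4 in F1 21% and 126.3 in F3 21%. At day 456 it was 159.4 in F1 5%, 151.2 in F3 5%, 157.5 in F1 21% and 159.5 in F3 21%. Within each age the arrays were close together, and the ages did not overlap. The mean log2 intensity was 6.98 ± 0.01 at day 90 and 7.29 ± 0.04 at day 456 (SD, n = 4 each), a difference of 0.32, with pair ratios of 1.22 to 1.26. At day 90 the probe read above the 95th percentile of the olfactory receptor probes in 4 of 4 arrays and above their 99th percentile in 0 of 4, and at day 456 above the 99th in 4 of 4.

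Among the 8945 genes above the bound on low values (a mean log2 intensity of 6.95), 7.61% were higher at day 456 in 4 of 4 pairs, and in 3.22% the 4 arrays of day 456 all stood above the 4 of day 90. The rule picked Csprs and C130026I21Rik from such genes, so nothing is read from their count. For age 0.101% of these genes passed limma at an adjusted p of 0.05 (0.0671% with a higher level at day 456), and 12.2% had an unadjusted p below 0.05.

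The deposited values sit on an offset, taken here as background, which shrinks a log2 difference most where the signal is close to it. With the olfactory receptor median of each array subtracted, Csprs averaged 85.7 ± 17.4 intensity units at day 90 and 278.0 ± 28.3 at day 456 (SD, n = 4 each). C130026I21Rik averaged 11.9 ± 1.04 and 42.9 ± 3.86 on the same scale. The mean ratio of day 456 to day 90 was then 3.28 for Csprs (2.42 to 3.79 over the 4 pairs) and 3.61 for C130026I21Rik (3.49 to 3.83). Subtracting the 5th percentile of each array and adding 16 before log2, a smaller correction, gave log2 differences of 1.51 for Csprs and 0.998 for C130026I21Rik. The direction under these settings followed from the rule that picked both genes. The size of the C130026I21Rik ratio rests on a day 90 signal of 10.7 to 13.0 units after subtraction of the olfactory receptor median. At that age its probe was above the 99th percentile of the olfactory receptor probes in 0 of 4 arrays.

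**Figure D1:**
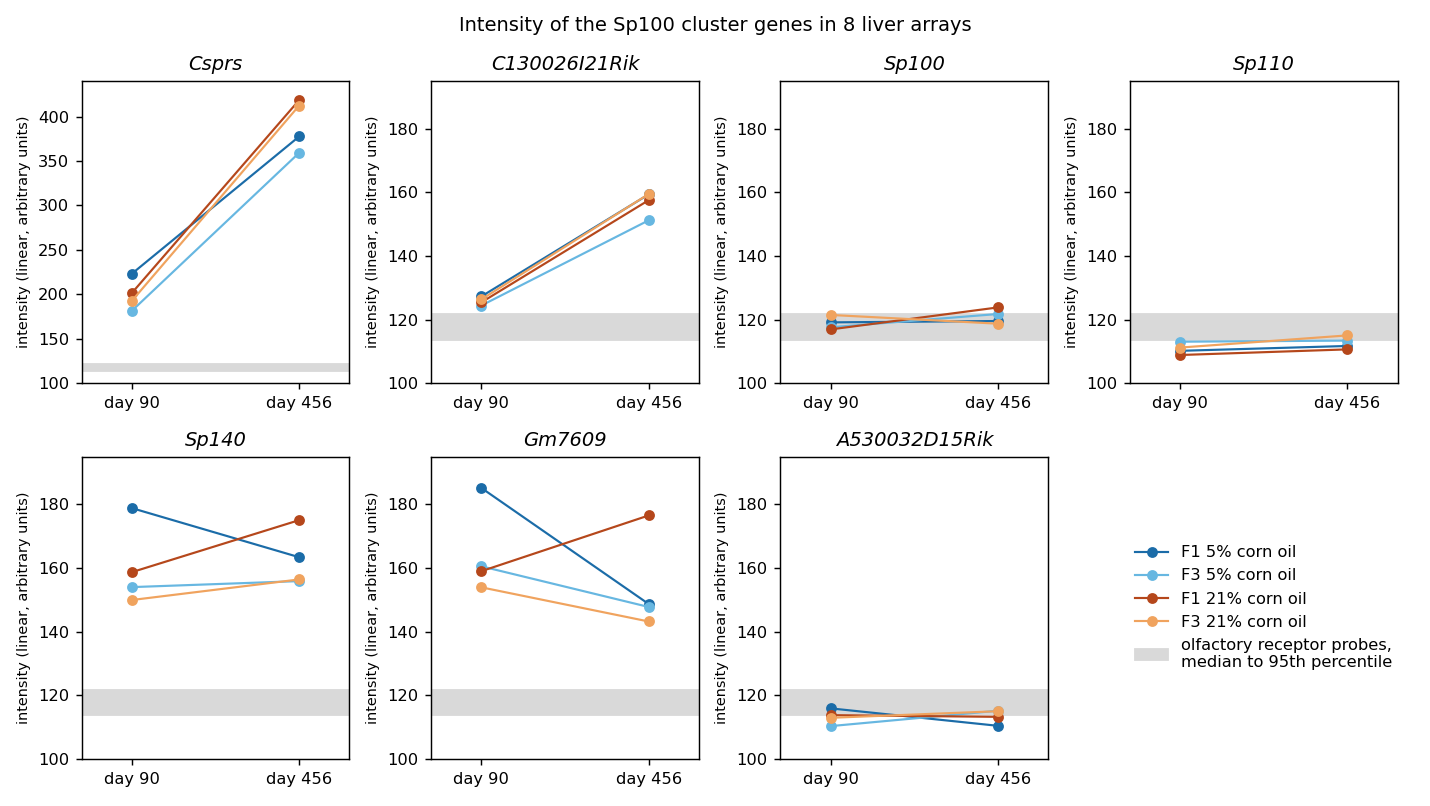
Intensity (linear, arbitrary units) of the 4 members and 3 relatives at day 90 and day 456, with a line for each matched pair of arrays (colour is generation and diet) and a grey band from the median to the 95th percentile of 1143 olfactory receptor probes. Csprs has a longer axis than the other genes, and no axis starts at 0. Csprs and C130026I21Rik read higher at day 456 along all 4 lines, Sp140 and Gm7609 lines cross, and Sp100, Sp110 and A530032D15Rik lie at or near the band.

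Sp100, the nuclear body protein gene, lay at the upper end of the olfactory receptor probes. Its intensity at day 90 was 119.1 in F1 5%, 117.6 in F3 5%, 116.9 in F1 21% and 121.5 in F3 21%. At day 456 it was 119.6 in F1 5%, 121.8 in F3 5%, 123.8 in F1 21% and 118.7 in F3 21%. The ages overlapped, 3 of 4 pairs were higher at day 456, and 2 of the 8 arrays exceeded the 95th percentile of the olfactory receptor probes. The age difference was +0.03 ± 0.02 on the log2 scale (SE, n = 4 arrays per level, 95% interval -0.02 to 0.07, adjusted p = 0.720 by limma). Because the probe fell below the bound on low values, it was tested in a fit of all 16593 genes, in which 0.151% passed for age.

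Sp110 lay inside the olfactory receptor probes. Its intensity at day 90 was 110.2 in F1 5%, 113.0 in F3 5%, 108.9 in F1 21% and 111.2 in F3 21%. At day 456 it was 111.7 in F1 5%, 113.4 in F3 5%, 110.6 in F1 21% and 115.0 in F3 21%. Every array of day 456 read above its day 90 partner, which 6.59% of all 16593 genes did, but by 0.00443 to 0.0489 on the log2 scale, and the ages overlapped. Over the 8 arrays Sp110 stood between percentiles 4.37 and 59.9 of those probes. The difference was +0.02 ± 0.01 (SE, n = 4 arrays per level, 95% interval -0.00242 to 0.0507, adjusted p = 0.567 by limma). Of the 2 members that age values did not pick, 0 passed for age by limma, and 0 had an unadjusted p below 0.05, against 9.17% of all 16593 genes. The 95% intervals of Sp100 and Sp110 are of values with background left in, so they do not bound a ratio of RNA. With the olfactory receptor median subtracted, day 90 intensity averaged 4.81 units for Sp100 and -3.14 for Sp110. At signals this close to the olfactory receptor probes a change could go unseen, for Sp110 also a large one. These values therefore do not show that there was none. In bulk liver, fewer cells of a type and less RNA per cell cannot be told apart for any of these genes.

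The other cluster genes with a probe were read as a comparison. Sp140 was bright enough to read, with 178.9, 154.0, 158.7 and 150.0 at day 90 and 163.4, 155.9, 175.1 and 156.4 at day 456, in the order F1 5%, F3 5%, F1 21% and F3 21%. The ages overlapped, and its difference was +0.02 ± 0.05 (SE, n = 4 arrays per level, 95% interval -0.09 to 0.14, adjusted p = 0.841 by limma). Its probe read above the 99th percentile of the olfactory receptor probes in 8 of 8 arrays. Gm7609, whose window is like that of Sp100, ranged from 154.0 to 185.2 at day 90 and from 143.2 to 176.5 at day 456, with 1 of 4 pairs higher and a difference of -0.10 ± 0.07 (adjusted p = 0.523 by limma). A530032D15Rik ranged from 110.3 to 115.9 over all 8 arrays, inside the olfactory receptor probes, with a difference of 0.00289 ± 0.0192 (adjusted p = 0.972 by limma over all 16593 genes). Of these 3 relatives 0 passed for age, and 0 had an unadjusted p below 0.05. Outside the family, 1 gene among the 41 entries listed within 10 places of a member had a probe, the kinase scaffold gene Cab39, which was dim and differed by -0.02 ± 0.02 (adjusted p = 0.657 by limma).

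Of the 15 genes listed as the wider Sp100 family, 11 had a probe and 6 lay above the bound on low values. Csprs and C130026I21Rik aside, these were Sp140, Gm7609 and the SAND domain genes Gmeb1 (+0.03 ± 0.02) and Gmeb2 (-0.06 ± 0.06), none of which passed for age by limma (adjusted p of 0.491 or more). Aire, a regulator of thymic gene expression (-0.01 ± 0.02), and Deaf1 (+0.04 ± 0.02, unadjusted p = 0.0487, adjusted p = 0.540 by limma) were below the bound.

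Diet was not used to pick the members and was tested for all 4. Csprs differed by +0.07 ± 0.09 with 21% corn oil (SE, n = 4 arrays per level, 95% interval -0.13 to 0.27, 3 of 4 pairs higher), and C130026I21Rik by +0.02 ± 0.03 (-0.05 to 0.08). Sp100 differed by 0.00846 ± 0.0218 and Sp110 by -0.00856 ± 0.0120. By limma 0 of the 4 passed for diet, as did 0% of all genes, and 0 had an unadjusted p below 0.05 (3.22% of the 8945 genes and 3.64% of all 16593 did). At day 456 both Csprs arrays of the 21% diet (418.6 and 412.5) read above both of the 5% diet (377.7 and 359.3), and at day 90 the diets overlapped. The corresponding interaction of age with diet was 0.20 ± 0.17 on the log2 scale (95% interval -0.18 to 0.59, adjusted p = 0.603 by limma), so a difference between the diets in the age contrast was not shown. The 4 arrays of the 21% diet had summed pancreatic markers of 3134 to 3555, below the 3 arrays with that signal. In that diet the ratios of day 456 to day 90 were 2.08 (Csprs) and 1.26 (C130026I21Rik) in F1, and 2.14 and 1.26 in F3. With 5% corn oil they were 1.69 and 1.25 in F1, and 1.98 and 1.22 in F3. With the pancreas marker level as a covariate, a setting added after seeing the data, the log2 age differences were 1.09 for Csprs and 0.338 for C130026I21Rik. Age picked both genes, so this fit is no test. Whether the pancreas marker signal had a part in these ratios was not tested.

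Between generations, Csprs read lower in F3 than in F1 in 4 of 4 pairs, as 5.52% of the 8945 genes did, by 0.02 to 0.30 on the log2 scale. The difference was -0.11 ± 0.09 (SE, n = 4 arrays per level, 95% interval -0.31 to 0.09, adjusted p = 0.988 by limma). Without F1 5% D90 it was -0.04. Sp140 and Gm7609 were also lower in F3 in 4 of 4 pairs, by -0.13 ± 0.05 and -0.14 ± 0.07 (adjusted p = 0.988 by limma for both). For Sp140 the 4 arrays of F3 (150.0 to 156.4) all read below the 4 of F1 (158.7 to 178.9), which 0.626% of genes did, with an unadjusted p = 0.0277 by limma. C130026I21Rik differed by -0.02 ± 0.03, with 2 of 4 pairs higher, and Sp100 by 0.000449 ± 0.0218. Sp110 was higher in F3 in 4 of 4 pairs (5.12% of all 16593 genes were), by 0.0364 ± 0.0120, with an unadjusted p = 0.0120 and an adjusted p = 0.997 by limma. All its values lie among the olfactory receptor probes. By limma 0 of the 4 members passed for generation, 1 had an unadjusted p below 0.05 (2.14% of the 8945 genes and 3.19% of all 16593 did), and 0% of genes passed. Of the interactions of age with generation and of diet with generation, those of Csprs were 0.14 ± 0.17 and 0.14 ± 0.19, and none passed for a member (adjusted p of 0.980 or more by limma).

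**Figure D2:**
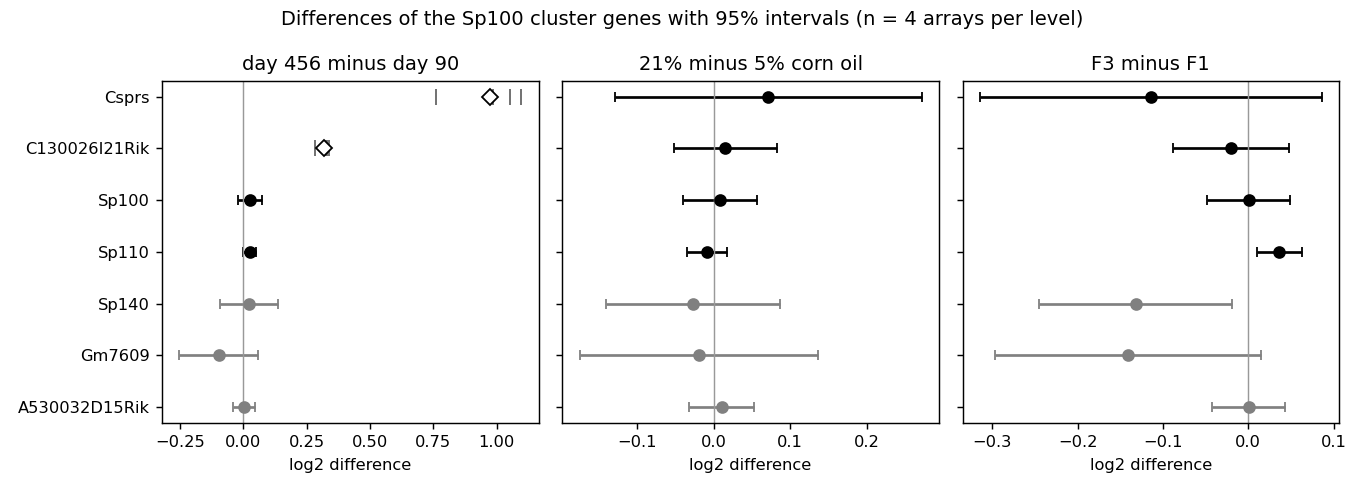
Log2 differences of the 4 members (black) and 3 relatives (grey) for age, diet and generation. Filled points carry 95% intervals of limma, not adjusted for the number of genes (n = 4 arrays per level), and the open diamonds of Csprs and C130026I21Rik for age carry only their 4 pair differences as ticks, because age picked them. The horizontal scales differ between panels. Sp140 and Sp110 have generation intervals that leave out 0 before adjustment.

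The genes most like each member were ranked by Pearson's r of log2 intensity over the 8 arrays, as a description with no test. For Csprs the 5 highest of 8944 genes were C130026I21Rik (r = 0.988), Plvap (0.966), Septin8 (0.962), Irak3 (0.959) and Ppbp (0.958). Plvap encodes the diaphragm protein of fenestrated endothelium, Irak3 a brake of Toll-like receptor signalling and Ppbp a platelet chemokine. For C130026I21Rik they were Csprs (0.988), Pqlc3 (0.974), the red blood cell anion exchanger gene Slc4a1 (0.973), the sialyltransferase gene St3gal6 (0.972) and Tmem45b (0.970). All of these genes had a higher mean at day 456, and their r values share that split, since the 8 arrays fall into 4 low and 4 high values of Csprs. Csprs and C130026I21Rik were both picked for that split, so their high r follows largely from the rule. After each age's mean was removed, r of Csprs was 0.645 with C130026I21Rik, 0.764 with Sp140, 0.649 with Gm7609 and 0.569 with A530032D15Rik. With Sp100 it was 0.0906 and with Sp110 -0.404. F1 5% D90 read the highest of the day 90 arrays for Csprs, C130026I21Rik, Sp140, Gm7609 and A530032D15Rik. How far these r values rest on that array was not tested. Sp140 did not follow Csprs across the ages (0.283 over all values). Sp140 and Gm7609 were alike within the ages (0.933) and over all values (0.793).

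Over all 8 arrays r between Csprs and Sp100 was 0.511, and r between Csprs and Sp110 was 0.424. For Sp100 the most alike of 16592 genes were Spata17, Phyh, P2ry6, Rad51b and Olfr1380 (r of 0.922 to 0.968), and for Sp110 they were Actl11, Hipk3, Taar8b, Tnfsfm13 and Otoa (0.911 to 0.943). The intensity of Olfr1380, an olfactory receptor gene, was 108.9 to 112.1, and that of Actl11 was 109.9 to 114.3, so these matches are between probes near the lowest values of the arrays.

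**Figure D3:**
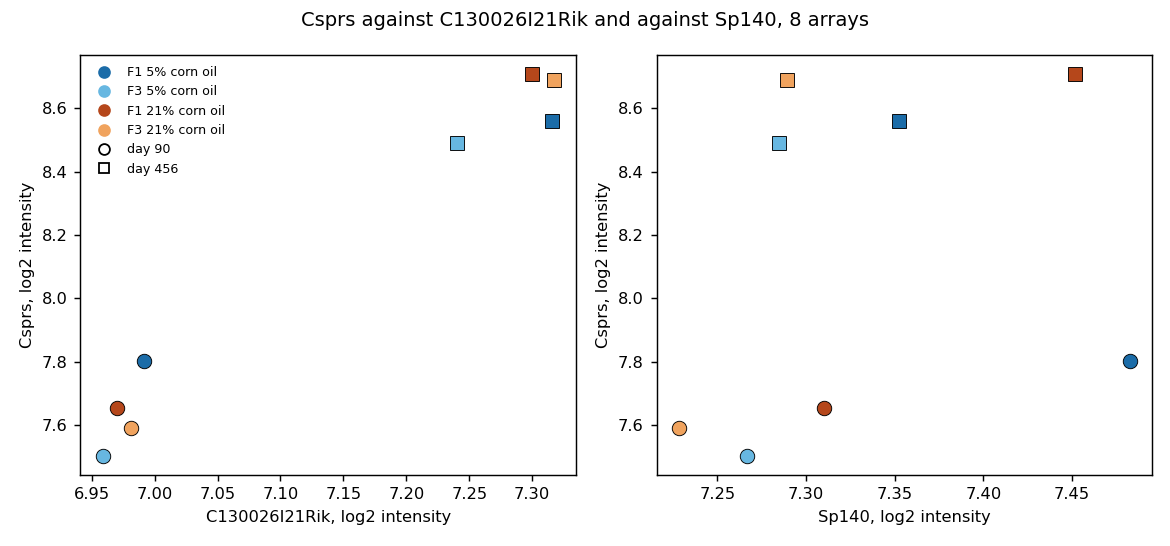
Log2 intensity of Csprs against C130026I21Rik (left) and against Sp140 (right), 1 point per array, with circles for day 90, squares for day 456 and colour for generation and diet. On the left the 8 arrays fall into a low and a high cluster by age, the contrast that picked both genes. On the right the ages separate along Csprs and overlap along Sp140.

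Genes that work with Sp100 or share its inducers were read from lists, for which the 8945 genes give a median age difference of -0.02, with 40.6% higher, 0.101% passing by limma and 12.2% with an unadjusted p below 0.05. Of 22 measured genes of PML nuclear bodies 10 were higher and 12 lower at day 456 (median -0.03), 0 passed by limma and 1 had an unadjusted p below 0.05, the exonuclease gene Isg20 (+0.11 ± 0.03, adjusted p = 0.249), named after its values were seen. The largest differences were those of the SUMO gene Sumo3 (+0.66 ± 0.34), the histone gene H3f3a (+0.39 ± 0.20) and the ubiquitin ligase gene Rnf4 (+0.38 ± 0.24), with an adjusted p of 0.449 or more. Of 52 interferon-stimulated genes 22 were higher and 30 lower (median -0.02), 0 passed by limma and 7 had an unadjusted p below 0.05, a share near that of all genes. Gbp2, a guanylate-binding protein gene of cell defence, had +0.44 ± 0.14 (4 of 4 pairs higher, adjusted p = 0.293), Usp18, which trims the interferon response, -0.31 ± 0.11 (adjusted p = 0.337) and Bst2, or tetherin, -0.29 ± 0.14 (adjusted p = 0.446). Their summed intensity was 29458 to 32750 at day 90 and 30129 to 31578 at day 456, so the ages overlapped.

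Most measured markers of blood and immune cells had positive age differences, though few passed, and their part in the differences of Csprs and C130026I21Rik was not tested. Of 22 measured Kupffer cell and macrophage markers 17 were higher (median +0.18, 0 passing by limma, 12 with an unadjusted p below 0.05), and the summed intensity of the 24 with a probe was 18989 to 27663 at day 90 and 29605 to 31565 at day 456. Lyz2 (+1.41 ± 0.33), Vsig4 (+0.79 ± 0.15) and Lyz1 (+0.73 ± 0.11) had the largest differences. The lectin gene Clec4f, which marks Kupffer cells, overlapped between the ages (937 to 1338 at day 90, 1234 to 1366 at day 456). Red blood cell markers were higher for 5 of the 6 measured (median +0.29, 1 passing by limma, 4 with an unadjusted p below 0.05). Summed intensities of the 8 with a probe were 16200 to 21309 and 24185 to 27818. Slc4a1, the 1 that passed, had +0.90 ± 0.08 (adjusted p = 0.00815 by limma), and Alas2 and Hba-a1 had +0.56 ± 0.09 and +0.45 ± 0.10.

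The 7 measured markers of B cells and plasma cells were all higher (median +0.14, 1 passing by limma, 6 with an unadjusted p below 0.05). Summed intensities of the 12 with a probe were 1553 to 1622 and 1697 to 1816. Mzb1 rose by 0.54 ± 0.06 (adjusted p = 0.0220 by limma), Cd79b had +0.31 ± 0.08 and Fcrla +0.18 ± 0.05. In these 3 lists the sums did not overlap between the ages. In the next 3 they did. Of 9 measured neutrophil markers 9 were higher (median +0.29, 1 passing by limma, 7 with an unadjusted p below 0.05). Lcn2 (+1.53 ± 0.58), S100a8 (+1.301 ± 0.20) and S100a9 (+0.82 ± 0.12) were in front. The sums of the 14 with a probe were 2301 to 4754 and 4227 to 6883. The 1 that passed was the cytokine gene Il1b, with +0.54 ± 0.07 (adjusted p = 0.0338 by limma), named after its values were seen. The calls of Slc4a1, Mzb1 and Il1b were all lost without the intensity trend and when F3 21% D456, F3 21% D90 or F3 5% D90 was left out, where 0 genes passed for age. Among 9 measured markers of T cells and NK cells, 7 were higher (median +0.09, 0 passing by limma, 6 with an unadjusted p below 0.05; sums of 2584 to 2844 and 2630 to 2880), among them Ccl5 (+0.52 ± 0.12) and Cd8b1 (+0.20 ± 0.07), beside Prf1 (-0.30 ± 0.12). Of 16 endothelial markers 10 were higher (median +0.07, 0 passing by limma, 3 with an unadjusted p below 0.05; sums of 10571 to 12949 and 12518 to 13737), led by Fcgr2b (+0.39 ± 0.13), Plvap (+0.24 ± 0.09) and Clec4g (+0.24 ± 0.09).

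Some defining markers sat within the olfactory receptor probes in every array: 2 of the 24 macrophage markers, 4 of the 12 B cell and plasma cell markers, 5 of the 17 T cell and NK cell markers and 1 of the 8 red blood cell markers. Hepatocyte markers were lower at day 456 in 14 of 15 (median -0.15, 0 passing by limma, 5 with an unadjusted p below 0.05), with Hal (-0.60 ± 0.10), Pck1 (-0.45 ± 0.08) and Alb (-0.38 ± 0.10, a probe that read 272.4 to 527.4) in front and sums of 182206 to 195891 and 175641 to 182771. Pancreatic acinar markers were higher in 20 of 20 (median +1.03, 0 passing by limma, 15 with an unadjusted p below 0.05), led by Cela2a (+1.45 ± 0.66), Clps (+1.43 ± 0.55) and Reg1 (+1.36 ± 0.49). Of the 3 arrays with summed pancreatic markers of 10394 or more, 2 were of day 456 and 1 of day 90. Skeletal muscle markers were lower in 8 of 10 (median -0.06, 0 passing by limma and 0 with an unadjusted p below 0.05), with Mylpf at -0.10 ± 0.30, Tnnt3 at -0.09 ± 0.16 and Tnnc2 at -0.08 ± 0.36.

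Csprs stayed at a difference of 0.93 to 1.05 and C130026I21Rik at 0.30 to 0.34 when any 1 of the 8 arrays was left out. Without F1 21% D90, the array with the Eif2s3y signal, they were 0.94 and 0.31. Age picked both genes, so these values describe the spread over arrays and do not test the difference.

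**Figure D4:**
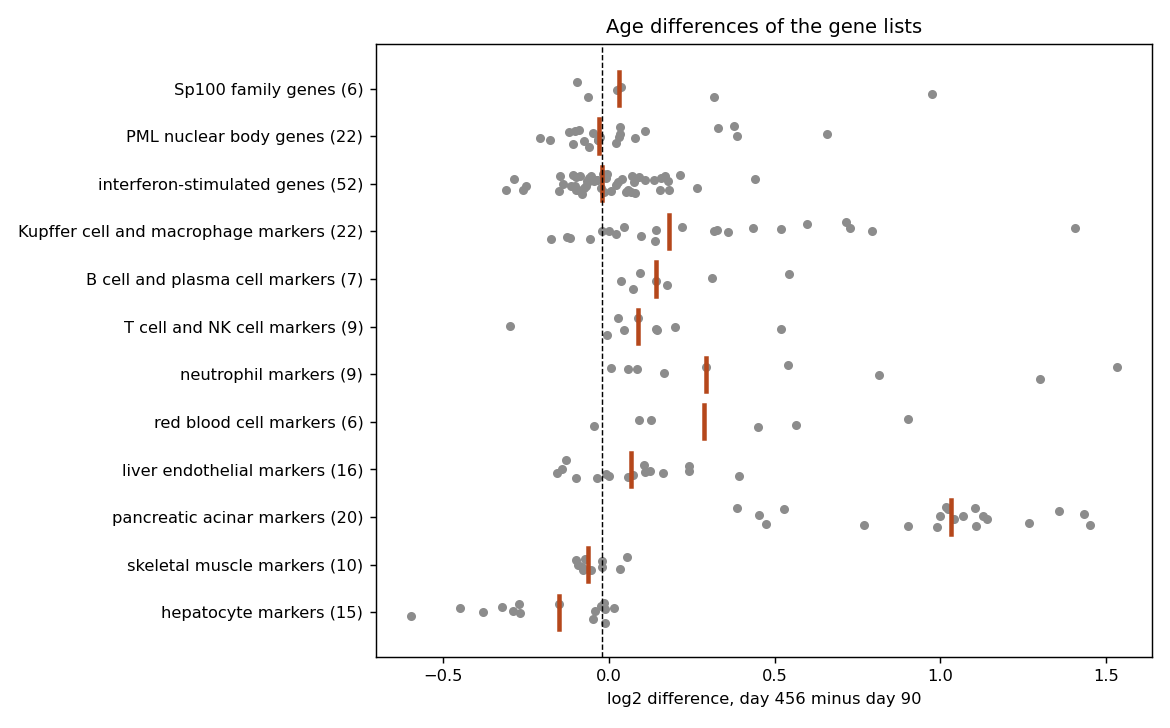
Age differences (log2, day 456 minus day 90) of the genes of 12 lists, 1 grey point per measured gene with its number in brackets, the list median as an orange bar and the median of all 8945 genes as a dashed line. The medians of PML nuclear body genes (-0.03) and interferon-stimulated genes (-0.02) lie at the dashed line, those of pancreatic acinar markers (+1.03) and of the macrophage, B cell, T cell, neutrophil, red blood cell and endothelial markers (+0.07 to +0.29) to its right.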

How the data were processed

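The authors deposited 1 table of intensity on a linear scale, a value for each of 25697 probes and 8 arrays. RNA was a Trizol extract checked on a Bioanalyser and labelled with biotin, per the labels. The authors' normalization is not stated in what was used here; near-equal means and medians show that the deposited arrays had been scaled to each other. Array number limits the precision. Values were log2 transformed. Of the probes 23978 carried 1 gene symbol, 0 several and 1719 none. A probe was kept if its mean log2 value exceeded 6.95, the median over probes, and the brightest probe stood for each gene (8945 genes). Sp100 and Sp110 fell below it, so they were tested over all 16593 genes without the bound.

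Age, diet and generation were tested in an additive model with limma 3.58.1 (R 4.3.3, intensity trend, 4 residual degrees of freedom), two-sided, with Benjamini-Hochberg adjustment over all genes and a threshold of 0.05. An interaction was added as 1 term. Intervals are at 95%. The scripts were tested on simulated data. Sequences are RefSeq's (GRCm38.p6) and were aligned with Biopython 1.88. Members and lists were chosen with earlier results of these data known. Named were the 4 members, the family list, the 3 genes of each other list and of the neighbours with the largest absolute age difference, and the 5 genes most like each member. Clec4f, Apoa1, Ttr and the promoter motifs were chosen after values or sequences were seen. Alternatives covered scaling, filters, probes, background, variance models, weights, blocks and left-out arrays.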

Additional observations from a re-analysis of the deposited data

How the results depend on the processing

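The age differences of Csprs and C130026I21Rik kept their direction under every alternative run. The rule that picked these genes largely fixed that outcome, so it is no support. The age differences of Sp100 and Sp110 stayed positive and did not pass under any (smallest adjusted p 0.563 and 0.459 by limma). The size moved with background: 1.51 for Csprs and 0.998 for C130026I21Rik with the 5th percentile subtracted, and 1.71 and 1.85 with the olfactory receptor median subtracted, a setting chosen after seeing the data. No diet or generation difference of a member passed under any alternative. With the pancreas marker level as a covariate, also added after seeing the data, the diet difference turned to -0.149 for Csprs and -0.0223 for C130026I21Rik. With 1 array left out in turn, it ranged from 0.0228 (without F3 21% D456) to 0.143 (without F1 5% D90) for Csprs, from -0.00236 (without F3 5% D456) to 0.0266 for C130026I21Rik, from -0.00653 (without F1 21% D456) to 0.0242 for Sp100 and from -0.0165 to -0.00413 for Sp110. The generation difference ranged from -0.163 to -0.0425 for Csprs, from -0.0332 to -0.00252 for C130026I21Rik, from -0.0136 to 0.0161 for Sp100 and from 0.0284 to 0.0430 for Sp110, and the age difference from 0.0113 to 0.0420 for Sp100 and from 0.0162 to 0.0308 for Sp110.

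For age 9 of 8945 genes passed by limma. The count was 25 with no bound on low values, 2 with the stricter one, 15 with background subtracted, 0 without the intensity trend, 24 with robust variances, 234 with array weights, 26 with the pancreas covariate and 0 to 23 with 1 array left out (23 without F1 5% D90, 19 without F1 21% D90, 4 without F1 5% D456, and 0 when the array removed was F3 21% D456, F3 21% D90 or F3 5% D90). For diet it was 0, with 43 under array weights and up to 30 without F1 5% D90. With array weights the variance fit stopped before convergence. Sp100 and Sp110 had no value under the stricter bound, nor C130026I21Rik, and no second probe existed for a member. A paired fit took the 2 arrays that share the other factors as a block. Its age difference had an SE of 0.0955 for Csprs and 0.0301 for C130026I21Rik, which is no test because age picked them. In the paired fit the adjusted p for age was 0.772 for Sp100 and 0.666 for Sp110 by limma. No call or sign of a member changed, and 8 genes passed for age. The cause of these shifts was not tested. Depth cannot be given for bead arrays; Sp100, Sp110 and A530032D15Rik were limited by signal near that of the olfactory receptor probes.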
